A study of Mus musculus with 20 samples.

Results

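The 31 genes described here encode the proteins that build, carry, remodel and take up plasma lipoproteins. They were chosen by name as a module of lipid transport, and they are 31 of the 34741 gene names on the array. All 31 were measured, through 42 probes, and all 31 were well above background on each of the 20 arrays; after the filter on dim probes 21998 genes were tested in the whole series. The livers came from 4 groups of 5 mice of 9 weeks, each animal on 1 array. Estrogen receptor alpha null mice (ERa-/-) gavaged with estradiol (E2, 1 mg/kg), null mice gavaged with placebo (castor oil with 5% ethanol), wild-type mice (ERa+/+) given E2 and wild-type mice given placebo made up the groups. Every animal had been ovariectomized at 4 weeks and was killed 4 hours after gavage, so all groups lacked ovarian hormones and the only estradiol supplied was that single dose. The wild types descended from the parents of the nulls. Neither the deleted stretch of the receptor gene nor the cage of 5 in which an animal lived is given in the sources used here. The design asks how liver transcripts respond to E2 and whether the response needs the receptor.

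The liver packages triglyceride and cholesterol with apolipoprotein B into very low density lipoprotein, and secretes much of the apolipoprotein A that forms high density lipoprotein. Lipases in capillaries and in the liver then strip triglyceride from the particles, small exchangeable apolipoproteins switch those lipases on or off, and receptors on hepatocytes clear what remains. Estrogen is known to change plasma lipoproteins in women and in rodents.

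Esr1, which encodes the receptor, was lower in nulls than in wild types under both treatments. Its log2 level, relative to the 75th percentile of each array, was -1.63 ± 0.31 in null E2 livers, -1.61 ± 0.48 in null placebo livers, 0.60 ± 0.41 in wild-type E2 livers and 0.39 ± 0.25 in wild-type placebo livers (SD, n = 5 each; limma, adjusted p = 0.000483 under placebo and 1.81e-05 under E2). Between 51.6% and 70.0% of spots per array were well above background, the number of arrays limits the precision, and the 20 arrays lay on 4 slides. All 10 hepatocyte markers were measured, including Alb and Ttr, and none of the 7 markers of skeletal muscle and pancreas passed the filter on dim probes. Levels below are log2 intensities on this array scale, differences are log2 differences with the standard error of the limma fit, and a call means an adjusted p under 0.05 over all 21998 genes.

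None of the 31 genes passed the test for E2 in either genotype. In nulls their log2 differences (E2 minus placebo) ran from -0.35 to 0.39, with adjusted p-values from 0.824 upward, and in wild types from -0.21 to 0.38, with adjusted p-values from 0.610 upward (limma). Over all genes the same test called 0.00455% in nulls and 0.318% in wild types, so at those rates 0 calls among 31 genes is near the background. At an unadjusted p under 0.05 the members again gave 0 of 31 in nulls and 0 of 31 in wild types, where all genes gave 6.06% and 8.28%. The E2 and placebo livers did not overlap for 0 of 31 members in either genotype, against 0.809% of all genes in nulls and 1.5% in wild types. The difference between the genotypes in their response was called for 0 of 31 members, against 0.164% of all genes, and it ran from -0.22 to 0.49 (wild type minus null). At an unadjusted p under 0.05 that difference held 0 of 31 members and 7.39% of all genes.

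The intervals bound the size of each response. In nulls the 95% interval of the E2 effect lay within 2-fold in either direction for 28 of 31 members, the exceptions being Vldlr, Lpl and Lipg, against 89.7% of all genes. In wild types it lay within 2-fold for 29 of 31 members, the exceptions being Lpl and Lipg, against 87.9% of all genes. Within 1.5-fold the count was 25 of 31 in nulls and 23 of 31 in wild types. Scaling each array on its median in place of its 75th percentile moved the median of all genes by -0.105 in nulls and -0.22 in wild types. The direction of small differences thus depends on the scaling, and no count of members above or below 0 is read. The array of wild-type E2 animal 1 had a median intensity of 56.69, against 25.46 to 39.85 on the other arrays. Its 75th percentile, 364.2, lay within their range of 293.8 to 466.2. Every median-scaled value below that uses the wild-type E2 group includes this array, and its part in the shift was not tested.

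**Figure D1:**
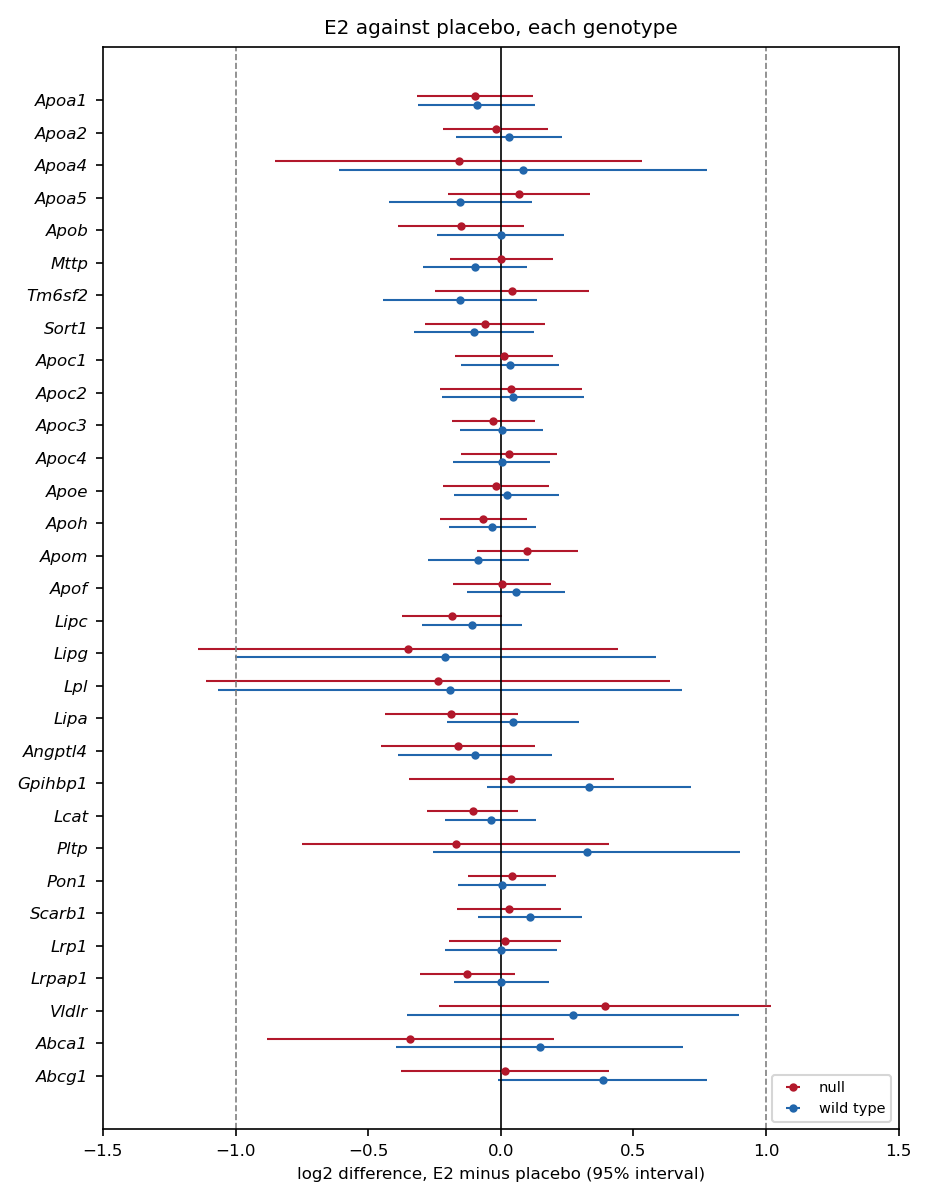
Log2 difference between E2 and placebo (horizontal axis) for each of the 31 genes (rows, grouped by role), in nulls (red, upper of each pair) and wild types (blue); points are limma estimates, bars 95% intervals and dashed lines a 2-fold change. Every interval includes 0, and the widest belong to Lipg, Lpl, Apoa4 and Vldlr.

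The structural apolipoproteins of high density lipoprotein gave no call 4 hours after E2. Apoa1, its main protein, stood at 8.14 ± 0.18 in null E2 livers and 8.24 ± 0.18 in null placebo livers, and at 8.12 ± 0.09 in wild-type E2 livers and 8.21 ± 0.17 in wild-type placebo livers (SD, n = 5 each). Its interval for E2 was -0.32 to 0.12 in nulls and -0.31 to 0.13 in wild types. Apoa2, the second protein of the particle, differed by -0.02 ± 0.09 in nulls and by 0.03 ± 0.09 in wild types. Apoa5, a liver protein that promotes triglyceride clearance, differed by 0.07 ± 0.13 in nulls and -0.15 ± 0.13 in wild types. Apoa4, which responds to feeding and fasting in mouse liver, was the least even of the 4 from animal to animal. It ran from 3.98 to 4.85 in null E2 livers and from 3.75 to 5.40 in null placebo livers, and from 3.95 to 4.61 in wild-type E2 livers and from 3.54 to 5.31 in wild-type placebo livers.

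The apolipoprotein B pathway gave small differences as well. Apob, the scaffold of very low density lipoprotein, differed by -0.15 ± 0.11 in nulls and by 0.00 in wild types, where the interval ran from -0.24 to 0.24. Mttp, which loads lipid onto the nascent apolipoprotein B, differed by 0.00 ± 0.09 in nulls and -0.10 ± 0.09 in wild types. Tm6sf2, needed to fill the particle with triglyceride, differed by 0.04 ± 0.14 and -0.16 ± 0.14 in nulls and in wild types. Sort1, a sorting receptor that binds apolipoprotein B, differed by -0.06 ± 0.11 in nulls and -0.10 ± 0.11 in wild types.

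The small exchangeable apolipoproteins gave no call either, and their differences were close to 0. Apoc1, Apoc2, Apoc3, Apoc4 and Apoe together spanned differences of -0.03 to 0.04 in nulls and 0.00 to 0.04 in wild types, with adjusted p-values from 0.984 and from 0.943 upward (limma). Apoc2 activates lipoprotein lipase, Apoc3 and Apoc1 restrain triglyceride clearance, and Apoe is the ligand by which remnants bind their receptors. On the main scale Apoc3 had the smallest spread of all members, with a pooled within-group SD of 0.0979 that placed it at the 3.33rd percentile of all genes. Under quantile scaling its pooled SD was 0.073, and Apoe, Apoa2, Apoc1 and Pon1 lay below it. Its log2 level was 9.77 ± 0.09 in null E2 livers, 9.80 ± 0.11 in null placebo livers, 9.74 ± 0.05 in wild-type E2 livers and 9.73 ± 0.12 in wild-type placebo livers (SD, n = 5 each). Apoh, Apom and Apof, which ride on several lipoprotein classes, differed by -0.07 to 0.10 in nulls and by -0.08 to 0.06 in wild types. 

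Apom, the carrier of sphingosine 1-phosphate, had the smallest unadjusted p among members for a different response of the genotypes. Its log2 levels were 7.52, 7.38, 7.53, 7.62 and 7.52 in null E2 livers, against 7.55, 7.36, 7.46, 7.58 and 7.11 in null placebo livers. In wild types they were 7.47, 7.33, 7.35, 7.58 and 7.40 under E2, against 7.66, 7.40, 7.39, 7.48 and 7.61 under placebo. All 4 groups overlapped. E2 minus placebo was 0.10 ± 0.09 in nulls and -0.08 ± 0.09 in wild types, and wild type minus null was -0.18 ± 0.13 (limma, unadjusted p = 0.163, adjusted p = 0.799). Without null placebo animal 5, the lowest liver, it was -0.11.

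Among the lipases and their partners Lipc came nearest to a difference in nulls. Lipc encodes hepatic lipase, which hydrolyses lipid in remnants and in high density lipoprotein. Its log2 levels were 2.50, 2.21, 2.63, 2.49 and 2.31 in null E2 livers, against 2.75, 2.58, 2.49, 2.84 and 2.41 in null placebo livers. In wild types it stood at 2.61, 2.58, 2.55, 2.66 and 2.61 under E2, against 2.82, 2.76, 2.68, 2.68 and 2.60 under placebo. The groups overlapped in both genotypes. E2 minus placebo was -0.18 ± 0.09 in nulls (limma, unadjusted p = 0.0552, adjusted p = 0.824) and -0.11 ± 0.09 in wild types (adjusted p = 0.773), and the difference between these responses (wild type minus null) was 0.08 ± 0.13 (adjusted p = 0.942). Under median scaling, with the shift of all genes given above, the E2 values were -0.29 in nulls and -0.33 in wild types, without a call.

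Lipa encodes the lysosomal acid lipase that breaks down cholesteryl ester and triglyceride taken up with lipoproteins. Its levels were 3.28, 3.36, 3.74, 3.52 and 3.21 in null E2 livers, against 4.02, 3.53, 3.36, 3.60 and 3.54 in null placebo livers. In wild types they were 3.25, 3.27, 3.65, 3.54 and 3.44 under E2, against 3.45, 3.39, 3.33, 3.44 and 3.31 under placebo. Null placebo animal 1 was the highest of all 20, and the groups overlapped. E2 minus placebo was -0.19 ± 0.12 in nulls (limma, adjusted p = 0.862) and 0.05 ± 0.12 in wild types, and null minus wild type under placebo was 0.23 ± 0.12 (unadjusted p = 0.0741, adjusted p = 0.538). Without that animal these values in nulls and under placebo were -0.08 and 0.12.

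Lpl, the lipoprotein lipase of muscle and fat, was the most variable member on the main scale, with a pooled SD of 0.704 (95.3rd percentile of all genes) and single livers from -1.04 to 1.19. Lipg, the endothelial lipase, came next with a pooled SD of 0.636, and under quantile scaling it was the more variable, at 0.907 against 0.704 for Lpl. Of 8 adipocyte markers 5 were measured, while Adipoq, Plin1 and Lep did not pass the filter on dim probes.

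Gpihbp1, which anchors lipoprotein lipase to the capillary wall, had the second smallest unadjusted p among members for E2 in wild types. In null livers its levels were 3.24, 2.98, 2.83, 3.77 and 3.14 under E2, against 2.98, 3.33, 3.56, 2.71 and 3.18 under placebo, a difference of 0.04 ± 0.18. Its levels were 3.69, 3.68, 3.05, 3.50 and 3.49 in wild-type E2 livers, against 2.92, 2.92, 3.22, 3.53 and 3.17 in wild-type placebo livers. The groups overlapped, with 2 E2 livers above all placebo livers and 3 among them, and the difference was 0.33 ± 0.18 (limma, unadjusted p = 0.0874, adjusted p = 0.650). Wild type minus null, the responses differed by 0.29 ± 0.26 (adjusted p = 0.867). Within slides the wild-type difference was 0.67, -0.16 and 0.57 on the 3 slides that held both treatments, each with 1 wild-type placebo liver. Under median scaling the difference over all wild types was 0.11.

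Abcg1, a pump that passes cholesterol to high density lipoprotein and is abundant in macrophages, had the smallest unadjusted p among members for E2 in wild types. In nulls its levels were -0.44, -0.36, -0.24, 0.49 and -0.43 under E2, against -0.65, 0.07, -0.47, -0.09 and 0.08 under placebo, a difference of 0.02 ± 0.19. Levels were 0.06, 0.25, 0.48, -0.02 and 0.15 in wild-type E2 livers, against -0.51, -0.12, -0.36, 0.24 and -0.24 in wild-type placebo livers. Only 1 placebo liver reached the level of the E2 livers, so the groups overlapped. The difference was 0.38 ± 0.19 (95% interval -0.01 to 0.78, unadjusted p = 0.0548, adjusted p = 0.610, limma). It was above 0 on each of the 3 slides that held both treatments (0.24, 0.03 and 0.66), each with 1 wild-type placebo liver. Wild type minus null, the responses differed by 0.37 ± 0.26 (adjusted p = 0.809). Under median scaling the wild-type value was 0.16. Abca1, the pump that starts high density lipoprotein on apolipoprotein A-I, differed by -0.34 ± 0.26 in nulls and 0.15 ± 0.26 in wild types.

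Markers of other liver cells are given beside both genes. None of the 12 Kupffer-cell and macrophage markers or the 11 endothelial markers was called in any comparison, and 0 of each had an unadjusted p under 0.05 (limma). With E2 in wild types all 12 Kupffer-cell markers had differences above 0 (median 0.26), as did all 11 endothelial markers (median 0.12). Under scaling to the median of each array, which shifted the median of all genes by -0.22 in this comparison, the counts were 7 of 12 and 2 of 11. In nulls 12 of 12 Kupffer-cell markers (median 0.18) and 6 of 11 endothelial markers were above 0 on the main scale, against 8 of 12 (median 0.071) and 5 of 11 under median scaling. Of 8 red cell markers 4 were measured, and with E2 in wild types all 4 were above 0 (median 0.52), 3 of them with an unadjusted p under 0.05 and none called, while in nulls 1 of 4 was above 0. The mean log2 level of the Kupffer-cell markers ran from 1.84 to 2.77 in null E2 livers, 1.56 to 2.47 in null placebo livers, 1.60 to 3.11 in wild-type E2 livers and 1.44 to 2.35 in wild-type placebo livers. That of the endothelial markers ran from 1.45 to 2.37, 1.27 to 2.09, 1.65 to 2.13 and 1.5 to 2.25 in the same groups. In pieces of whole liver, a change in the number of cells of a type and a change in RNA per cell cannot be told apart.

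Across the 20 livers Abcg1 correlated with the mean of the 12 Kupffer-cell markers (Pearson r = 0.714, permutation p = 0.00038, adjusted p = 0.00142; Spearman rho = 0.668, permutation p = 0.00157, adjusted p = 0.00785). Without the 2 livers farthest from the median level of Abcg1 r was 0.527, within groups it was 0.681, and on the 3 slides with at least 5 arrays it was 0.682, 0.912 and 0.87. Gpihbp1 correlated with the mean of the 11 endothelial markers (r = 0.839, permutation p = 1e-05, the smallest that the 100000 permutations can give, adjusted p = 7.5e-05; rho = 0.85, permutation p = 2e-05, adjusted p = 0.00015). Without the 2 livers farthest from the median of Gpihbp1 r was 0.766, within groups 0.837, and within the same slides 0.918, 0.69 and 0.936. For Lpl and the mean of the 5 measured adipocyte markers no relation was detectable (r = 0.058, permutation p = 0.81, adjusted p = 0.81; rho = 0.066, permutation p = 0.781, adjusted p = 0.781; without the 2 farthest livers r = 0.246, and -0.18, 0.49 and -0.135 within the slides). These 3 pairs were chosen after the values had been seen, they are 3 of 15 pairs over which the p-values were adjusted, and the part of other cells in the E2 values of Abcg1 and Gpihbp1 was not tested. The probe on which the Gpihbp1 values rest, at chr15:75428484-75428543 on the plus strand of mm9, is shown 5′ to 3′ because it fixes the stretch of transcript that was measured.
Gpihbp1: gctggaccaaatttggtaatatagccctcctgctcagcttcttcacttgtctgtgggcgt

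**Figure D2:**
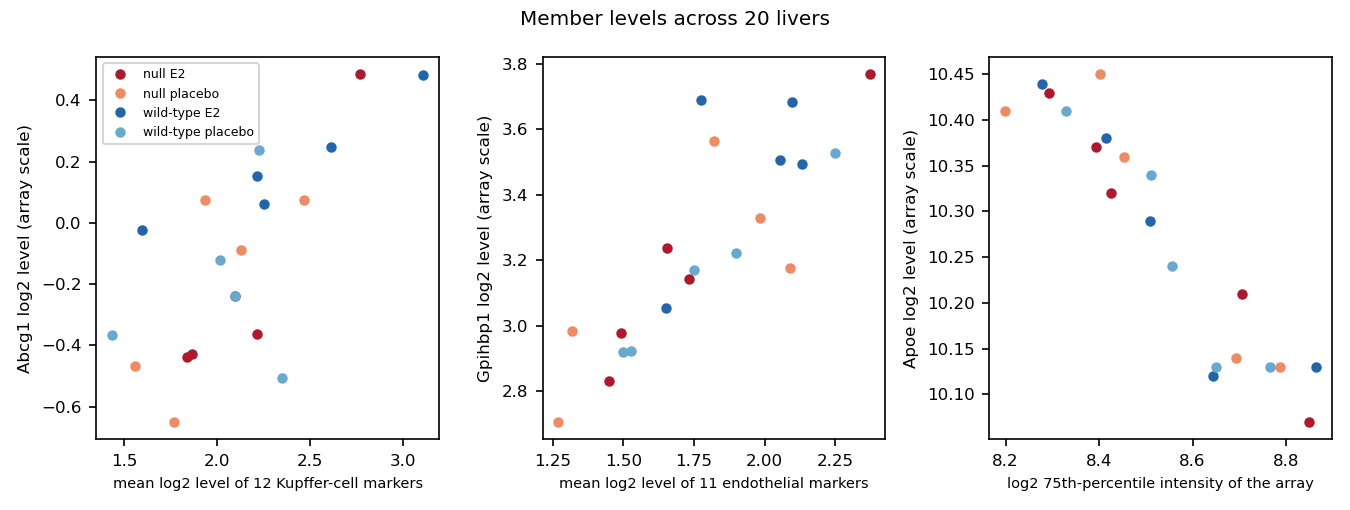
Each point is 1 of 20 livers, coloured by group. The left panel sets the log2 level of Abcg1 against the mean log2 level of 12 Kupffer-cell markers (r = 0.714), the middle panel Gpihbp1 against 11 endothelial markers (r = 0.839), and the right panel Apoe against the log2 75th-percentile intensity of its array (r = -0.938). The Apoe level has that same intensity subtracted.

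The remaining HDL-remodelling genes and the receptors gave no call for E2 either. Lcat, which esterifies cholesterol on high density lipoprotein, differed by -0.11 ± 0.08 in nulls and -0.04 ± 0.08 in wild types. Pltp, the phospholipid transfer protein, differed by -0.17 ± 0.28 and 0.32 ± 0.28, and Pon1, an antioxidant esterase carried on high density lipoprotein, by 0.04 ± 0.08 and 0.00 ± 0.08, in nulls and then wild types. Scarb1, the receptor that takes cholesteryl ester from high density lipoprotein, differed by 0.03 ± 0.09 in nulls and 0.11 ± 0.09 in wild types. Lrp1, a remnant receptor, differed by 0.02 ± 0.10 in nulls and by 0.00 ± 0.10 in wild types. Vldlr, which is scarce in healthy liver, differed by 0.39 ± 0.30 in nulls and 0.27 ± 0.30 in wild types, with single livers from 0.49 to 2.42. Lrpap1 differed by -0.13 ± 0.09 in nulls and 0.00 ± 0.09 in wild types, and Angptl4 by -0.16 ± 0.14 and -0.10 ± 0.14.

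**Figure D3:**
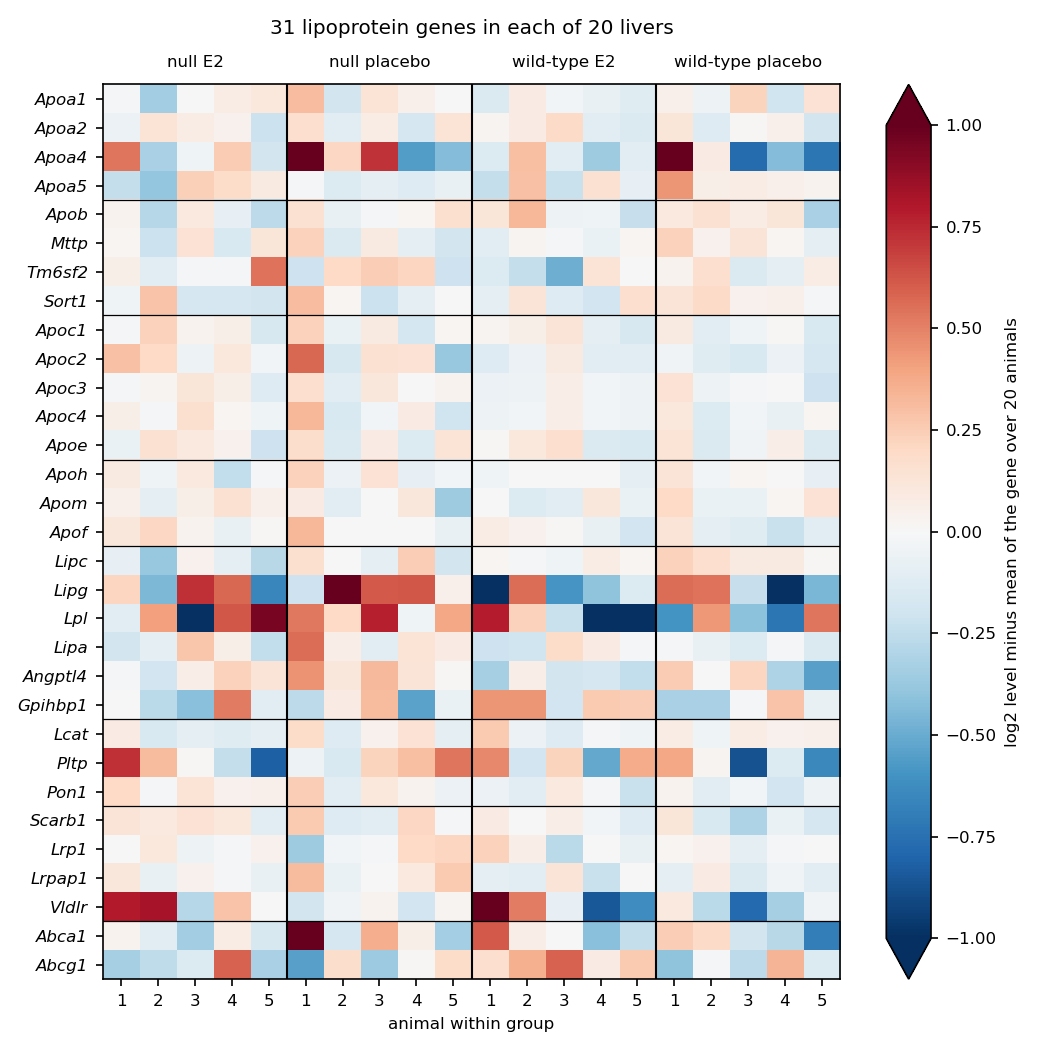
Log2 level of each of the 31 genes (rows, grouped by role) in each of the 20 livers (columns: null E2, null placebo, wild-type E2, wild-type placebo), as the difference from the gene's mean over all livers; colours saturate at 1 log2 unit. Lipg, Lpl, Apoa4, Vldlr and Pltp vary most between animals of 1 group.

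Loss of the receptor gave no call among the 31 genes. Under E2 the log2 differences (null minus wild type) ran from -0.38 to 0.48, with 0 of 31 called against 0.464% of all genes, and 0 of 31 with an unadjusted p under 0.05 against 9.63%. Under placebo they ran from -0.22 to 0.59, with 0 of 31 called against 0.0727% of all genes. Median scaling moved the median of all genes by 0.12 under E2 and by -0.002 under placebo. Averaged over both treatments, the comparison with the smallest errors, they ran from -0.20 to 0.52, with adjusted p-values from 0.273 upward and 0 of 31 called against 0.696% of all genes (limma). At an unadjusted p under 0.05 the averaged comparison held 2 of 31 members, Angptl4 and Pon1, against 12.9% of all genes, and the placebo comparison held 1, Lrpap1, against 10.1%. For the average, 29 of 31 intervals lay within 2-fold, the exceptions being Lpl and Lipg, and 27 of 31 within 1.5-fold. Groups that did not overlap were found for 0 of 31 members under E2 (2.5% of all genes), for 0 of 31 when all nulls were set against all wild types (0.0682%) and for 1 under placebo (1.85%).

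Angptl4, a secreted inhibitor of lipoprotein lipase that rises with fasting, had the smallest p of the module. Its levels were 7.91, 7.73, 7.99, 8.16 and 8.05 in null E2 livers, against 7.59, 7.99, 7.74, 7.75 and 7.68 in wild-type E2 livers. Under placebo they were 8.37, 8.04, 8.25, 8.05 and 7.94 in nulls, against 8.18, 7.93, 8.14, 7.62 and 7.38 in wild types. Nulls lay higher on average and overlapped wild types under both treatments. The averaged difference was 0.25 ± 0.10 (95% interval 0.04 to 0.45, unadjusted p = 0.0203, adjusted p = 0.273, limma), and it stood at 0.22 ± 0.14 under E2 and 0.28 ± 0.14 under placebo. Without wild-type placebo animal 5 the placebo value was 0.16. On the 2 slides that held all 4 groups, with 1 or 2 livers of each, the averaged difference was 0.16 and 0.49.

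Pon1 was narrow in every group. Its levels were 8.17, 7.97, 8.11, 8.02 and 8.02 in null E2 livers and 8.22, 7.87, 8.08, 8.01 and 7.92 in null placebo livers. Wild types had 7.92, 7.86, 8.07, 7.96 and 7.76 under E2 and 8.01, 7.87, 7.95, 7.78 and 7.93 under placebo. The averaged difference was 0.13 ± 0.06 (unadjusted p = 0.0351, adjusted p = 0.337, limma), and it was 0.08 under quantile scaling, under normexp background correction and in the deposited values. Lipc pointed the other way, at -0.13 ± 0.06 on average (unadjusted p = 0.0502, adjusted p = 0.388) and -0.17 ± 0.09 under E2.

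**Figure D4:**
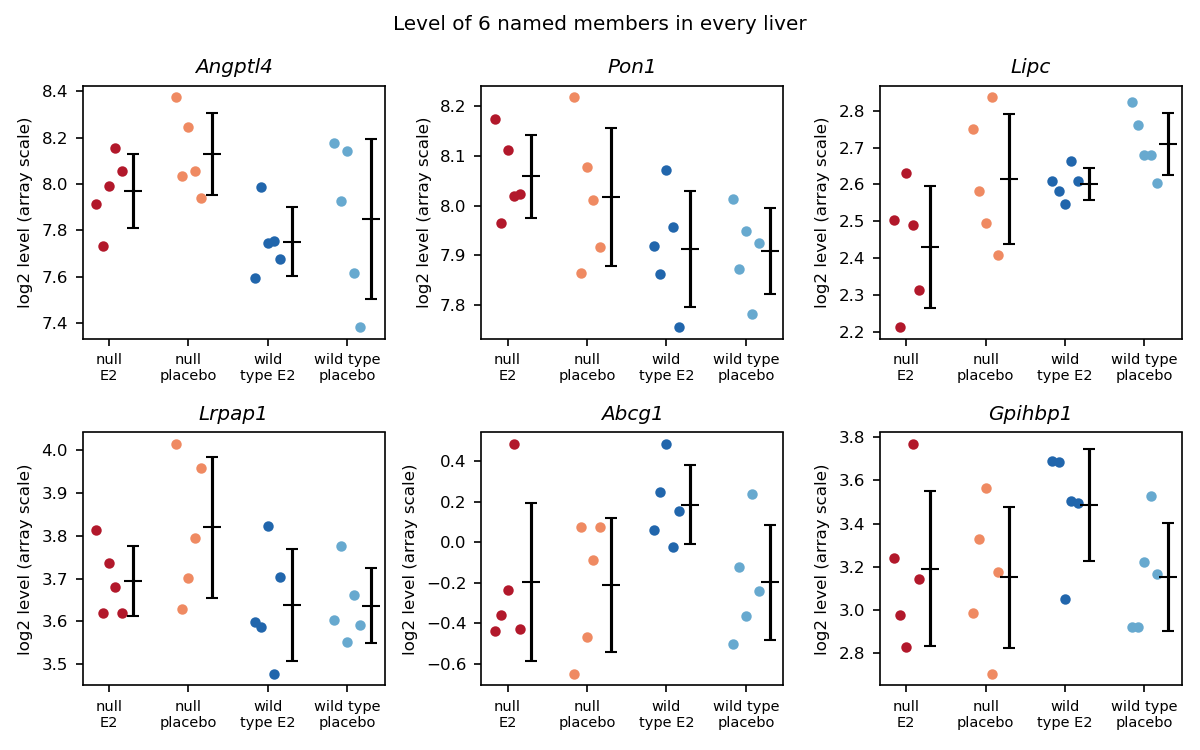
Log2 level on the array scale (vertical axes, 1 scale per gene) of 6 named genes in null E2, null placebo, wild-type E2 and wild-type placebo livers; points are animals, and bars the mean with SD. The nulls and wild types of each gene overlap under each treatment.

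Lrpap1, a chaperone that keeps ligands off lipoprotein receptors, was measured by 2 probes that disagreed. The brighter probe gave 4.01, 3.63, 3.70, 3.80 and 3.96 in null placebo livers, against 3.60, 3.78, 3.55, 3.66 and 3.59 in wild-type placebo livers, a difference of 0.18 ± 0.09 (unadjusted p = 0.0447, adjusted p = 0.482, limma). Under E2 it gave 3.81, 3.62, 3.74, 3.68 and 3.62 in nulls, against 3.60, 3.59, 3.82, 3.48 and 3.70 in wild types, a difference of 0.06 ± 0.09. Groups overlapped under both treatments. The other probe gave -0.01 ± 0.08 under placebo and -0.17 ± 0.08 under E2. The brighter one lies at chr5:35435982-35437504 on the minus strand of mm9, a span wider than its 60 bases, as of a probe across a splice junction.
Lrpap1, brighter probe: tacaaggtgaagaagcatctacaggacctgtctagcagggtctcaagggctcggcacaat
Lrpap1, other probe: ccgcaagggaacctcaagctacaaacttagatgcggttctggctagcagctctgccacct

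Sort1 was measured by 3 probes, and 1 of them stood apart; Sort1 and Lrp1 are described here after their probe values had been seen. Averaged over treatments, null minus wild type was -0.05 ± 0.08 for the brightest probe and 0.09 ± 0.13 for a probe at chr3:108164349-108164408, but -0.45 ± 0.14 for one at chr3:108157150-108159198 that spans more than its 60 bases (limma, unadjusted p = 0.00476, adjusted p = 0.155 over all probes, limma). All lie on the plus strand of mm9. The probe that stood apart was dim, at a mean level of -4.07, against -0.85 for the brightest and -2.24 for the other. It was well above background on 4 of 5 null E2 arrays, 3 of 5 null placebo arrays and all wild-type arrays. Lrp1 gave a like picture, with 0.02 ± 0.07 and -0.04 ± 0.15 for 2 of its probes and -0.42 ± 0.17 for the third (unadjusted p = 0.0194, adjusted p = 0.281 over all probes, limma). Beside the brightest Lrp1 probe, at a mean level of 5.03, the others were dim, at -3.06 and -3.37. None of these Sort1 and Lrp1 probes passed the adjusted threshold. The Sort1 probes are printed because the value depends on which is read.
Sort1, brightest probe: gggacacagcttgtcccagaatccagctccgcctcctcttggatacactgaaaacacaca
Sort1, probe at chr3:108164349-108164408: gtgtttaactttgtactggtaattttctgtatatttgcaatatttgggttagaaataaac
Sort1, probe at chr3:108157150-108159198: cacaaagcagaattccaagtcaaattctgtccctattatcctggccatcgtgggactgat

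Apoa5 was the member whose nulls and wild types did not overlap under placebo, and it was singled out after its values had been seen. Its levels were 5.27, 5.15, 5.18, 5.15 and 5.21 in nulls, against 5.72, 5.34, 5.36, 5.33 and 5.32 in wild types. The placebo nulls lay below all placebo wild types, with a difference of -0.22 ± 0.13 (unadjusted p = 0.0999, adjusted p = 0.586, limma), which was -0.14 without wild-type placebo animal 1, the highest liver. Under E2 the difference was 0.00 ± 0.13. Apoc2 stood at 0.17 ± 0.09 on average (adjusted p = 0.464), Lpl at 0.50 ± 0.29 and Lipg at 0.52 ± 0.27. The endothelial markers were below 0 in 11 of 11 cases in the averaged comparison (median -0.16), and none had an unadjusted p under 0.05 (limma). Under E2 and under placebo 2 of 11 were above 0, on the main scale and under median scaling alike. In null against wild type under E2, 2 of 12 Kupffer-cell markers were above 0, and Abcg1 stood at -0.38 ± 0.19 (adjusted p = 0.534, limma). Under median scaling 6 of 12 were above 0 there. In null against wild type the 4 measured red cell markers were all above 0 under placebo (median 0.51) and on average (median 0.20). Under E2 1 of the 4 was above 0 (median -0.0985). Of the 4 markers Alas2, the first enzyme of haem synthesis in red cell precursors, was called under placebo and on average. Under E2 Alas2 differed by 0.27 ± 0.12, without a call. It stood at 3.36 ± 0.32 in null placebo livers, against 2.46 ± 0.12 in wild-type placebo livers (SD, n = 5 each), and was 0.90 ± 0.12 higher in nulls (adjusted p = 0.00249, limma), and 0.58 ± 0.08 on average (adjusted p = 0.00172). The placebo call ended in 3 of 36 settings and the averaged one in 1 of 35. The part of other cell types in these values was not tested.

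**Figure D5:**
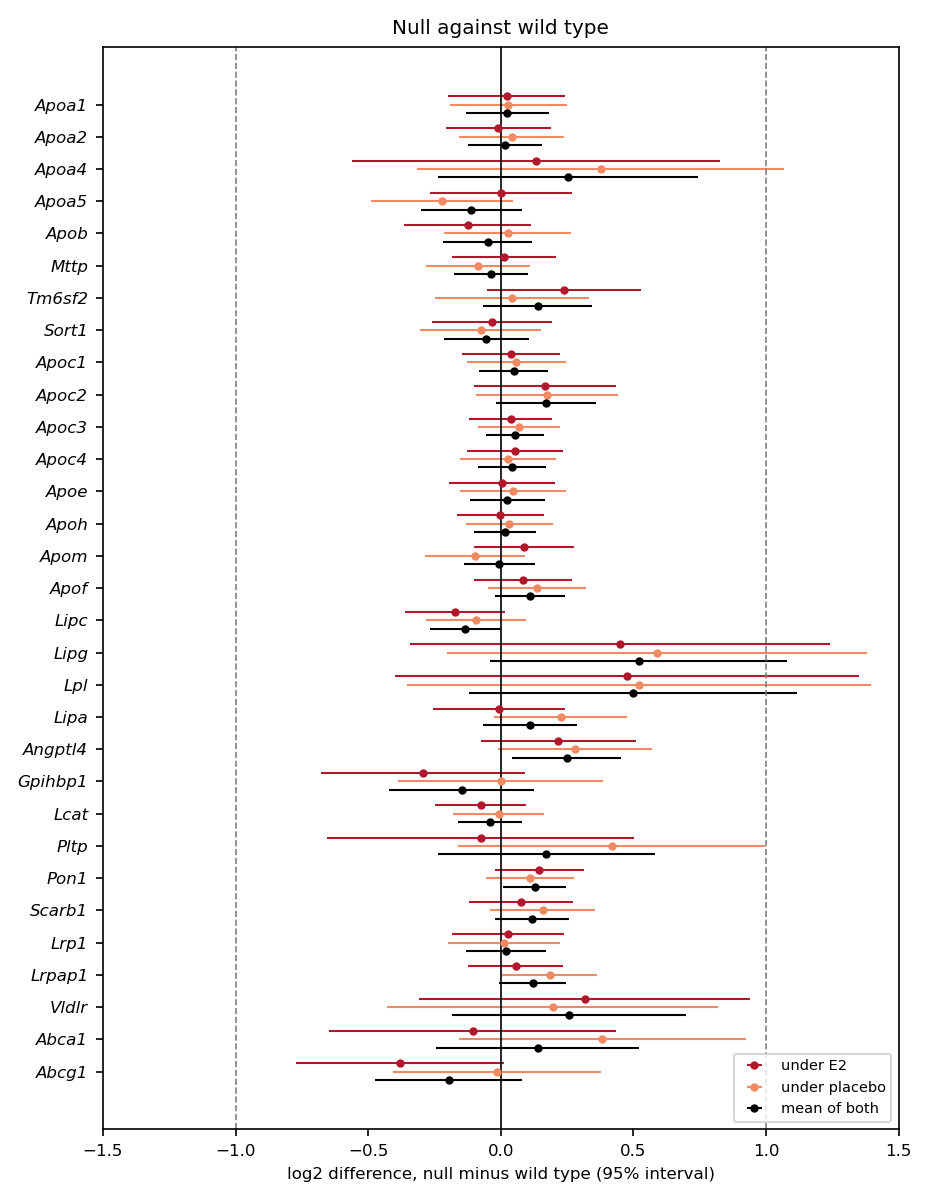
Log2 difference between nulls and wild types (horizontal axis) for each of the 31 genes, under E2 (red), under placebo (orange) and averaged (black); points are limma estimates, bars 95% intervals and dashed lines a 2-fold change. The averaged interval excludes 0 for Angptl4 and Pon1, and neither passed the test adjusted over all genes.

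The spread between animals ran differently in the roles, given here as a description. The median pooled within-group SD was 0.159 over the 31 members and 0.232 over all 21998 genes. By role the median was 0.114 for the genes of HDL remodelling, 0.127 for Apoh, Apom and Apof, 0.128 for the C apolipoproteins with Apoe, 0.145 for the receptors, 0.171 for the apolipoprotein B pathway, 0.181 for the A apolipoproteins, 0.262 for lipases and their partners and 0.369 for the 2 efflux pumps. The 6 least even members were Lpl, Lipg, Apoa4, Vldlr, Pltp and Abca1, with pooled SDs from 0.431 to 0.704.

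The levels of the brightest members ran against the brightness of their own array. That brightness, the 75th percentile, is subtracted in each level. A probe with an even raw signal therefore gives a negative r by construction. Across the 20 arrays the log2 level of Apoe correlated at r = -0.938 with the log2 75th-percentile intensity, that of Apoa2 at -0.912, Apoc1 at -0.783 and Apoc3 at -0.655. Lipc stood at 0.182 and Apom at 0.318. Tm6sf2 ran with the brightness of its array, at 0.726, the highest value among members. Under quantile scaling the pooled SD of Apoe was 0.025, against 0.141 on the main scale. Quantile scaling gives a rank the same value on every array, so a probe that keeps its rank has a small SD by construction.

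Neighbouring apolipoprotein genes lie in 2 clusters, Apoa1, Apoc3, Apoa4 and Apoa5 on chromosome 9 and Apoe, Apoc1, Apoc4 and Apoc2 on chromosome 7. Of 12 pairs within the clusters 4 had an adjusted p under 0.05 across the 20 livers, and for the other 8 r ran from 0.153 to 0.433. Under median scaling the 12 pairs ran from 0.426 to 0.975. Pairs of members outside the clusters were not computed, so the count has no background and is not read as a trait of neighbours. Apoe and Apoc1 gave r = 0.917 (permutation p = 1e-05, adjusted p = 7.5e-05; rho = 0.91, adjusted p = 0.00015), but under quantile scaling it was -0.323. The pooled SDs of Apoe and Apoc1 under quantile scaling were 0.025 and 0.045, so that value rests on small differences. On the main scale r was 0.897 without the 2 farthest livers and 0.949, 0.965 and 0.909 within the 3 slides of at least 5 arrays. Apoc3 with Apoa4 (r = 0.571, permutation p = 0.0084, adjusted p = 0.0252; rho = 0.409, adjusted p = 0.137) turned sign in the same way; it was 0.353 without the 2 farthest livers and 0.728, 0.536 and 0.593 within slides. Apoc1 with Apoc2 (r = 0.525, permutation p = 0.0162, adjusted p = 0.0405; rho = 0.453, adjusted p = 0.118) was 0.209 without the 2 farthest livers, and 0.845, 0.457 and -0.224 within slides. Under quantile scaling 6 of the 12 pairs turned sign.

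Apoc4 and Apoc2 kept a positive correlation under each of 4 other scalings, from 0.502 to 0.896 (main scale r = 0.759, permutation p = 0.00035, adjusted p = 0.00142; rho = 0.636, permutation p = 0.00302, adjusted p = 0.0113). Without the 2 farthest livers r was 0.669, within groups 0.766, without null placebo animal 1 0.572, and on the 3 slides 0.953, 0.099 and 0.88. Apoc2 ran from 7.88 to 8.82 in null placebo livers, the widest of its groups, and from 8.08 to 8.22 in wild-type placebo livers. Neither gene correlated with the array's intensity as Apoe did (r = -0.224 for Apoc4 and -0.116 for Apoc2). Other cluster pairs also stayed positive under the 4 scalings. These were Apoc1 with Apoc2 (0.251 to 0.838), Apoa1 with Apoa5 (0.249 to 0.833), Apoa1 with Apoc3 (0.1 to 0.852) and Apoc3 with Apoa5 (0.016 to 0.806). The highest value of each pair, that of Apoc4 with Apoc2 among them, came from median scaling.

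Promoters of 20 of the 31 members could be matched to RefSeq sequences of build GRCm38.p6 (26 promoters, from 250 bases before to 50 after the start). The estrogen response element, searched as GGTCA and TGACC separated by any 3 bases, a palindrome that reads alike on both strands, was in none of the 26, and in 0.07% of all 32851 promoters. Its single arm AGGTCA was searched on both strands and is also contained in its direct repeats separated by 1 base and by 4 bases. AGGTCA was in 5 of the 26 promoters, 1 each of Apoa2, Apoc2, Apoc4, Apoh and Lipc, and in 16.3% of all promoters. The 2 direct repeats and the sterol response element TCACNCCAC were in none of the members' promoters. TATAAA was in 8 of the 26 promoters, from 7 members, and in 13.6% of all promoters. One promoter each of Apoc4, Apoc2 and Lipc is shown, the first 2 because their levels ran together and the third because Lipc came nearest to a difference in nulls, with AGGTCA and its reverse complement TGACCT in capitals.
Apoc4, chr7:19681411-19681710, minus strand: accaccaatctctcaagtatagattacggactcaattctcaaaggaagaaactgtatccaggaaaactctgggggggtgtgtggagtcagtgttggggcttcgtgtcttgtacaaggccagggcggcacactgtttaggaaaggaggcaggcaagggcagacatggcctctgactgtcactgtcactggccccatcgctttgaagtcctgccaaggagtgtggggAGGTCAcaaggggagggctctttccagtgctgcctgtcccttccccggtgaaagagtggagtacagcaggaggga
Apoc2, chr7:19677892-19678191, minus strand: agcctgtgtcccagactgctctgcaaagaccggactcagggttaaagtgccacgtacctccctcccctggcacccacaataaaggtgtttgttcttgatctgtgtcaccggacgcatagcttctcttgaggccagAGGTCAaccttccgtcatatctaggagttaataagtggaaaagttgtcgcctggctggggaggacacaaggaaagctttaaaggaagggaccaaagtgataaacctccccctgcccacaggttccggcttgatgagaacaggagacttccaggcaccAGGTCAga
Lipc, chr9:70934759-70935058, minus strand: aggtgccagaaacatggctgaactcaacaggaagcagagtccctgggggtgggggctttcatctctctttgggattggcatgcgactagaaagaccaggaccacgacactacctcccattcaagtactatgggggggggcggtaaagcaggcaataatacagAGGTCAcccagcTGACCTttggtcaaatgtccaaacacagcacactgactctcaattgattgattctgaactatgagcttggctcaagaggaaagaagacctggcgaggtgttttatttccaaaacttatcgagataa
In the Apoc4 promoter the motif begins 25 bases before the start, and in that of Apoc2 115 bases before and again 42 bases after it. In the Lipc promoter shown AGGTCA and TGACCT begin 88 and 76 bases before the start; the second Lipc promoter of the table, at chr9:70952172-70952471, held none of the motifs searched. A match is a description of letters, and the E2 response of these 5 members did not pass the test.

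Other genes of the pathway, taken from lists of partners, gave few calls. None of 25 partners of very low density lipoprotein assembly, 19 receptors and clearance factors, 13 regulators of lipases and 17 genes of sterol handling was called in any comparison. Among assembly partners Pdia4 had -0.29 ± 0.12 and Pnpla2 0.27 ± 0.13 for E2 in wild types, and Dgat2, an enzyme of the last step of triglyceride synthesis, had 0.16 ± 0.06 and Sec24a, part of the coat that carries cargo out of the endoplasmic reticulum, 0.13 ± 0.06 for null minus wild type (adjusted p = 0.540, 0.617, 0.247 and 0.394, limma). Among receptors Cd36, a fatty acid transporter, had 0.88 ± 0.40 and Lrp6, a Wnt co-receptor, -0.24 ± 0.09 for E2 in wild types (adjusted p = 0.573 and 0.494). Sdc1, a heparan sulfate remnant receptor, had 0.27 ± 0.09 for null minus wild type averaged over treatments (adjusted p = 0.185, limma).

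Angptl8, a secreted regulator of lipoprotein lipase, had wild-type groups that did not overlap. In nulls it stood at 4.24, 4.56, 3.46, 4.05 and 3.69 under E2, against 3.84, 3.98, 4.06, 4.87 and 4.56 under placebo, a difference of -0.26 ± 0.25. It stood at 3.07, 3.46, 3.58, 3.63 and 3.64 in wild-type E2 livers, against 3.88, 4.08, 3.81, 4.79 and 4.83 in wild-type placebo livers. The difference of -0.80 ± 0.25 did not pass the test (unadjusted p = 0.00435, adjusted p = 0.345, limma), where 1.5% of all genes had groups that did not overlap. Wild type minus null, the responses differed by -0.54 ± 0.35 (adjusted p = 0.779). Pcsk6, a protease that cuts endothelial lipase, had 0.27 ± 0.10 for E2 in wild types (adjusted p = 0.449, limma). Mgll, which splits monoglycerides, had -0.19 ± 0.09 for null minus wild type. In sterol handling, Osbpl9 had -0.20 ± 0.09 and Stard4, a cholesterol carrier of the cytosol, -0.23 ± 0.13 for E2 in wild types, and Abca2 had -0.29 ± 0.12 and Abca7 -0.18 ± 0.10 for null minus wild type.

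Insig2 and Cebpa were the 2 of 28 regulators called for E2 in wild types, where 0.318% of all genes were called. Insig2 holds the sterol sensor of cholesterol synthesis in the endoplasmic reticulum. In nulls its levels were 5.43, 5.19, 5.29, 5.27 and 5.29 under E2, against 6.39, 5.61, 6.14, 5.45 and 4.99 under placebo, a difference of -0.42 ± 0.26 (limma, adjusted p = 0.859). In wild types they were 6.22, 6.36, 6.47, 6.50 and 6.46 under E2, against 6.15, 5.45, 4.98, 4.78 and 4.43 under placebo. The 5 wild-type E2 livers lay close together and above all placebo livers of that genotype. Insig2 rose 2.37-fold in wild types (log2 1.25 ± 0.26, adjusted p = 0.0488, limma), and a second probe gave 1.23 ± 0.26 (adjusted p = 0.0458 over all probes, limma). Wild type minus null, the responses differed by 1.67 ± 0.37 (adjusted p = 0.109). For the second probe this was 1.91 ± 0.36 (adjusted p = 0.0301 over all probes, limma). Its difference for E2 in nulls was -0.68 ± 0.26 (adjusted p = 0.813 over all probes, limma). Under E2, null minus wild type was -1.28 ± 0.26 for the second probe and -1.11 ± 0.26 for the first (adjusted p = 0.0265 and 0.0874 over all probes, limma). The call for wild types ended in 23 of 36 alternative settings, with adjusted p-values from 0.00234 to 0.342, among them median scaling (1.02, adjusted p = 0.342) and 17 of the 20 settings that left out 1 array. Without wild-type placebo animal 5 the value was 1.06 (adjusted p = 0.139, limma).

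Cebpa encodes a liver-enriched transcription factor. In nulls its levels were 4.52, 4.47, 4.65, 4.54 and 4.27 under E2, against 4.28 to 4.68 under placebo, a difference of -0.01 ± 0.12. In wild types they were 3.77, 3.97, 4.21, 4.38 and 4.28 under E2, against 4.62, 4.56, 4.79, 4.78 and 4.98 under placebo. All 5 wild-type E2 livers lay below all 5 placebo livers of that genotype. Cebpa fell by 0.63 on the log2 scale in wild types (adjusted p = 0.0204, limma), and that call ended in 11 of 36 settings, with adjusted p-values from 0.00749 to 0.364. Among them were slide as a fixed block (-0.54, adjusted p = 0.142) and leaving out wild-type E2 animal 1 or 2 or wild-type placebo animal 3, 4 or 5. Wild type minus null, the responses differed by -0.61 ± 0.17 (adjusted p = 0.353).

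Of 19 other apolipoprotein genes 1 was called, Apol7a, for null against wild type averaged over treatments, where 0.696% of all genes were called. Its levels were 5.73, 5.61, 5.46, 5.53 and 5.40 in null E2 livers, against 5.22, 4.98, 5.31, 5.06 and 5.03 in wild-type E2 livers. Under placebo they were 5.52, 5.69, 4.90, 5.81 and 5.77 in nulls, against 5.00, 4.73, 4.51, 5.17 and 5.19 in wild types. The averaged difference was 0.52 ± 0.11, or 1.44-fold (adjusted p = 0.0364, limma), and a second probe gave 0.49 ± 0.12 (adjusted p = 0.0749 over all probes, limma). That call ended in 19 of 35 settings, 12 of them with 1 array left out, with adjusted p-values up to 0.0937. Apol7a belongs to a mouse family of similar genes, so its probes may also bind transcripts of its relatives.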

How the data were processed

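Total RNA of 20 livers was hybridised to 1-colour arrays, 1 animal each. The intensity values were background-subtracted within each array by Agilent Feature Extraction 10.10.1.1, per the file headers, which name build mm9. The authors' deposited log2 table (32526 probes) was normalized between arrays by a method not given in the sources used here; its column medians were 7.85 throughout, its columns correlated at 0.988 to 0.994 with the scanner values, and it served as an alternative.

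The main value was log2 of the processed signal minus the log2 75th percentile of the array. Non-uniform and control spots were left out, spots of a probe were averaged, probes well above background on 4 of 5 arrays of any group were kept (30961 of 55681), and the brightest kept probe stood for its gene. Of the probes, 27235 were named by accession and 3581 by symbol through RefSeq, 565 by synonym, and 24300 kept the name of the file. Groups came from the labels. One limma fit (3.58.1, R 4.3.3) of 4 group means used 16 residual degrees of freedom, with Benjamini-Hochberg adjustment over 21998 genes and a threshold of 0.05. Nothing in the labels says more of the animals' independence than their numbers, so p-values measure the spread between these 20 livers. On data simulated for E2 against placebo in wild types over 21972 genes, 32 of 50 changes of 2-fold and 24 of 50 of 1.5-fold were called. Of 50 changes each of 3-fold and 4-fold, 49 and 45 were called, and there were 10 false calls. The simulated noise was independent between genes, and many genes were changed at once. Recovery in the real comparison, with 70 genes called, can therefore be lower.

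The members and lists were chosen with earlier results of these data known. Values of every animal are given for the 3 members with the smallest unadjusted p in a comparison; of each other list the called genes are named, and where none was called the 2 with the smallest unadjusted p for the wild-type E2 response and for null minus wild type averaged over treatments. Some genes that this rule selects, and a probe sequence, are not reported here. Correlations used 100000 permutations (Python 3.11.15, scipy 1.17.1). Samples with equal replicate numbers correlated at -0.163 to 0.245, and 3 of 20 correlated best with their own number. For replicate numbers 1 and 4 all correlations were above 0 (0.0407 to 0.245 and 0.0714 to 0.13). Correlations of whole arrays cannot exclude a pairing of the animals, and the main fit used none. Alternatives covered scaling, background correction, the probe filter and choice, slides, replicate and animal numbers, the variance model, array weights and each array left out. Population outlier spots and the settings for correlations, Apoa5 and Alas2 were added after the data were seen.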

Additional observations from a re-analysis of the deposited data

Results flagged for a closer look

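In 11 of 124 groups of 5 livers 1 animal stood apart from the other 4 by Dixon's criterion, where chance gives about 1 in 20 groups; values are log2 levels on the array scale. Among apolipoproteins, Apoa1 was 7.83 in null E2 animal 2, against 8.16 to 8.29 in the other 4. Apof was 7.91 in null placebo animal 1, against 7.50 to 7.59. Wild-type E2 animal 3 was highest for Apoc3 at 9.83 and for Apoc4 at 7.87. Wild-type placebo animal 1 had Apoa5 at 5.72, and wild-type placebo animal 5 had Apob at 7.09, against 7.49 to 7.58 in the other 4.

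Among the other members, Lcat was 5.23 in null E2 animal 1 and 5.41 in wild-type E2 animal 1. Null E2 animal 5 was lowest of its group for Scarb1 at 4.25 and highest for Tm6sf2 at 4.25. Abcg1 was 0.49 in null E2 animal 4, against -0.44 to -0.24 in the other 4, and that liver also had the highest mean of Kupffer-cell markers of its group (2.77).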

How the results depend on the processing

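The count of members called was 0 in all 6 comparisons under every alternative run, and the counts of members with an interval within 2-fold moved by less than 1.5 times. The 19 named member results kept their direction and their side of the threshold in 678 settings, and Esr1 in 72. With the replicate block 0 members were called and 0 genes for E2 in nulls, and it changed no other count by over 1.5 times. Of 675 settings for the genes that the naming rule chose from the other lists, 53 ended a call and 3 made one, and of 71 for Alas2, 4 ended one. All 31 members were well above background on every array. Lipg was the dimmest, at a mean level of -2.64, and whether dim signal widened its spread was not tested.

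The number of all genes called moved more, and the cause was not tested. For E2 in nulls (1 gene) it was 0 under median scaling, with no filter on dim probes, with the mean of the kept probes, with only the 2 groups fitted and with only animals numbered 750 or above, 2 with slide as a fixed block, and 0 to 2 with an array left out. For E2 in wild types (70) it was 32 under median scaling, 46 with only the 2 groups fitted and 41 with animals numbered 750 or above. For the difference of the responses (36) it was 18 under median scaling and 10 with animals numbered 750 or above. For null against wild type under E2 (102) it was 39 and 35 under those settings, and 67 (without wild-type E2 animal 5 or null E2 animal 2) to 120 with an array left out. Under placebo (16) it was 7 and 2 under those settings, 8 with no filter or only the 2 groups fitted, 9 with slide as a block, 30 with trend and robust variance, 52 with array weights, and 6 (without wild-type placebo animal 3) to 46 (without null placebo animal 3) with an array left out. Averaged (153), it was 49 and 49, 70 with no filter, 68 with slide as a block, 267 with trend and robust variance, 517 with array weights, and 77 (without wild-type E2 animal 5) to 273 (without wild-type placebo animal 5). The difference of the responses and the averaged comparison could not be fitted from fewer groups.

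Some correlations turned. Apoc3 with Apoa4 gave -0.136 under quantile scaling, -0.0187 with normexp and -0.0942 in the deposited values. Apoe with Apoc1 gave -0.323 under quantile scaling and -0.0201 in the deposited values. Lpl with the adipocyte markers gave -0.0395 under quantile scaling, and -0.0462 to 0.201 with an array left out.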

Other observations

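The mean log2 level of the 5 measured adipocyte markers ran from -0.37 to 0.00 in null E2 livers, from 0.05 to 0.66 in null placebo livers, from -0.08 to 0.38 in wild-type E2 livers and from -0.63 to -0.04 in wild-type placebo livers. In nulls 1 of 5 had a difference above 0 with E2 (median -0.34), and in wild types 4 of 5 (median 0.56, and 0.268 to 0.34 under 4 other scalings). None of these markers was called, and their part in the values of Lpl was not tested.

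The spread within groups under E2 and under placebo is given as a description, without a test. Among nulls the SD of 20 of 31 members was lower under E2 than under placebo, against 56.7% of all genes, and among wild types that of 14 of 31, against 42.5%.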
